A study of Mus musculus with 24 samples.

Results

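Collagen IV, the nidogens, perlecan and agrin form, together with the laminins, the sheet of basement membrane that pericytes and endothelial cells share in the wall of a brain microvessel. The genes described here are the 6 collagen IV chain genes Col4a1 to Col4a6, the nidogen genes Nid1 and Nid2, the perlecan gene Hspg2 and the agrin gene Agrn, chosen by name. They are 10 of the 25471 genes listed in 3 tables of mouse embryonic brain cells. All 10 were listed for pericytes at E11.5 and at E13.5, and 8 for endothelial cells at E13.5, where Col4a4 and Col4a6 were not analysed.

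Messenger RNA was sequenced from 24 libraries of cells sorted by flow cytometry from embryonic mouse brains. Mutants carried Pdgfrb-Cre, 2 floxed copies of Alk5 (flox/flox) and a ZsGreen reporter (Zs/+), and controls carried Pdgfrb-Cre, 1 floxed copy (flox/+) and the same reporter. Alk5 is another name of Tgfbr1, whose product is a TGF-beta receptor, so controls could lose 1 of its copies in Cre-expressing cells. Pdgfrb is active in pericytes and also in other mural cells and fibroblasts, and the labels call the sorted pericytes mesenchymal. How endothelial cells were gated is not stated in the labels, which mark the mutants of both stages with GMH-IVH, the usual short form of germinal matrix and intraventricular haemorrhage, and the controls as normal. The E11.5 pericytes came from 4 mutant and 4 control samples, the E13.5 pericytes from 4 mutant and 4 control samples, and the E13.5 endothelial cells from 3 mutant and 5 control samples. Endothelial cells of the mutants come from the same genotype, in which Cre is driven by the mural gene. The study asked which genes depend on ALK5 in brain pericytes.

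The chains encoded by Col4a1 and Col4a2 wind into a triple helix that most basement membranes contain, and mutations in either gene can cause brain haemorrhage around birth in mice and people. Col4a3, Col4a4, Col4a5 and Col4a6 encode chains of restricted networks, known from kidney, smooth muscle and epithelia. Nidogens bridge the laminin and collagen IV networks. Perlecan and agrin carry heparan sulfate, a sugar chain that binds growth factors, and agrin also organises the nerve-muscle synapse.

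The collagen IV genes lie in head-to-head pairs, and all positions below are GRCm38 (mm10). Col4a1 runs from 11312826 down to 11198423 on the minus strand of chromosome 8, and Col4a2 from 11312805 up to 11449287 on the plus strand, so that their first bases overlap by 22. Reads on those 22 bases could count for either gene. Col4a4 starts at 82586849 on the minus strand and Col4a3 at 82586921 on the plus strand of chromosome 1, with 71 bases between them. Col4a6 and Col4a5 lie on the X chromosome with 1308 bases between their starts at 141474076 and 141475385. Nid1 spans 13437551 to 13512269 on chromosome 13 and Nid2 19751265 to 19811787 on chromosome 14. Hspg2, at 137468769 to 137570630, and Agrn, at 156165290 to 156197488, are both on chromosome 4.

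The start regions of the Col4a1 and Col4a2 pair and of the Col4a6 and Col4a5 pair are shown because the first pair had like levels in every group and the second did not. Each window holds 250 bases before and 50 after a RefSeq start (build GRCm38.p6), written 5′ to 3′ on the gene's own strand, at chr8:11312777-11313076 on the minus strand for Col4a1, chr8:11312555-11312854 on the plus strand for Col4a2, chrX:141474027-141474326 on the minus strand for Col4a6 and chrX:141475169-141475468 on the plus strand for Col4a5. Capitals mark CCCTCCCC, CCAAT and CAGAC, the last a core of SMAD-bound sites, on either strand.
Col4a1: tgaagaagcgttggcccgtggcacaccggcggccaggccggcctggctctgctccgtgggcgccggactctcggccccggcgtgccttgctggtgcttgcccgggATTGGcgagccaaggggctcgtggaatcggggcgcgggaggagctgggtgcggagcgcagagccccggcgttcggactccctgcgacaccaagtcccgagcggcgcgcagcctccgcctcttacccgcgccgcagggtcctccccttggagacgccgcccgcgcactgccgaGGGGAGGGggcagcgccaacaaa
Col4a2: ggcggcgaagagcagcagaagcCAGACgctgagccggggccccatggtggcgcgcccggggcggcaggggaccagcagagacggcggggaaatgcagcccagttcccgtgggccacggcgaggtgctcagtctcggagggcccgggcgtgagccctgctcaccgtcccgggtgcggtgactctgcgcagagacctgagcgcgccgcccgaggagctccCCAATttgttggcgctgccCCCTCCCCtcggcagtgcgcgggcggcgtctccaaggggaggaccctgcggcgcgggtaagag
Col4a6: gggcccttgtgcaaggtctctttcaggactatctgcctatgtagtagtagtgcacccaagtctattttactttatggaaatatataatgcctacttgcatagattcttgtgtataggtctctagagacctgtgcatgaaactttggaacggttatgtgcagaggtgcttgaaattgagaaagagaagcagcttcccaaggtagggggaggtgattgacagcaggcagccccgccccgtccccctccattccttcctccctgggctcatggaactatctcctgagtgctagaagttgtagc
Col4a5: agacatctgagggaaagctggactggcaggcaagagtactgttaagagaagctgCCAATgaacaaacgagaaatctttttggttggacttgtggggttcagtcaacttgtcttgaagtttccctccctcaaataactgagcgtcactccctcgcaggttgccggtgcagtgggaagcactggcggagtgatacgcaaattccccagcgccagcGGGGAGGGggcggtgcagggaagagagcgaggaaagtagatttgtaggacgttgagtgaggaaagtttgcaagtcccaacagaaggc

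The Col4a1 and Col4a2 windows shared 78 bases, so the run CCCTCCCC in the Col4a2 window is the same site as GGGGAGGG in the Col4a1 window. CCCTCCCC stood in 10.8% of all promoter windows, CCAAT in 37.4% and CAGAC in 49.6%. Of the 8 members that had a window, Col4a1, Col4a2, Col4a5 and Nid1 held both CCCTCCCC and CCAAT, and Col4a2 and Col4a4 held CAGAC. The GC box GGGCGG, found in 35.7% of windows and not capitalised here, occurred 12 times in the window at the first start of Agrn and 5 times in that of Hspg2. A match of letters is a description and not evidence of binding.

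The values used for each comparison were the authors' group means of normalized read counts, their ratio and p, with no values per library, so no spread between samples could be printed beside a mean. Standard errors (SE) and 95% intervals follow from the authors' ratio and p. A gene is called changed where the authors' adjusted p, named in their submission as coming from DESeq2, is under 0.05. Tgfbr1 was not called in any of the authors' deposited tables: it averaged 6196 in mutants and 4609 in controls at E11.5 (adjusted p = 0.399), 5823 in mutants and 5699.6 in controls in E13.5 pericytes (adjusted p = 1.00), and 2849 in mutants and 3066 in controls in endothelial cells (adjusted p = 0.859). The targeted gene's level therefore did not check the genotype labels in any of the 3 comparisons. A mean over the whole gene need not register the loss of floxed exons. The labelled cell types had their markers. In E13.5 control endothelial cells 12 endothelial markers had a median at the 98.7th percentile of gene levels and 11 pericyte markers at the 31.2nd. Erythroid markers stood at the 95.9th percentile in the same group and myeloid markers at the 75.2nd. In E13.5 control pericytes 11 pericyte markers stood at the 81.8th percentile and the 10 endothelial markers with values at the 43.0th. Pecam1 and Cldn5 had no value there. At E11.5 the pericyte markers stood at the 61.9th percentile in mutants and the 72.8th in controls. The 8 endothelial markers with values stood at the 35.3rd in mutants and the 45.5th in controls at that stage. Markers of fibroblasts and meninges stood higher than the pericyte markers in both control pericyte groups, at the 89.5th percentile at E11.5 and the 96.6th at E13.5. In sorted bulk RNA, fewer cells of a type and less RNA per cell cannot be told apart.

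Col4a1, Col4a2, Nid1 and Nid2 were the most abundant of these genes per kilobase of transcript in all 6 groups. In E13.5 pericytes Nid1 came first, at 2895 normalized counts per kb in mutants and 2544 in controls, followed by Col4a1 at 2556 in mutants and 2052 in controls. In E11.5 pericytes Col4a1 came first, at 1227 per kb in mutants and 1542 in controls. In E13.5 endothelial cells Col4a2 came first, at 1825 per kb in mutants and 2038 in controls. The order among these 4 genes cannot be set against a spread between samples. It changed in 2 of the 6 groups when the merged exons gave the length instead of the longest coding transcript.

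Col4a1 and Col4a2 made up nearly all collagen IV RNA per kb. Among the chains listed, Col4a1 held 53.1% in mutant and 52.0% in control pericytes at E11.5, and Col4a2 44.3% in mutants and 45.1% in controls. In endothelial cells Col4a1 held 49.6% in mutants and 45.1% in controls, and Col4a2 49.8% in mutants and 54.0% in controls. Col4a5, the most abundant of the other chains in pericytes, took 3.51% in mutant and 4.34% in control pericytes at E13.5, against 0.115% in mutant and 0.217% in control endothelial cells. The order of the smaller chains differed between the cell types. Col4a5 exceeded Col4a3 in every pericyte group, while in endothelial cells Col4a3, at 15.0 per kb in mutants and 24.0 in controls, exceeded Col4a5, at 4.22 in mutants and 8.18 in controls.

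**Figure D1:**
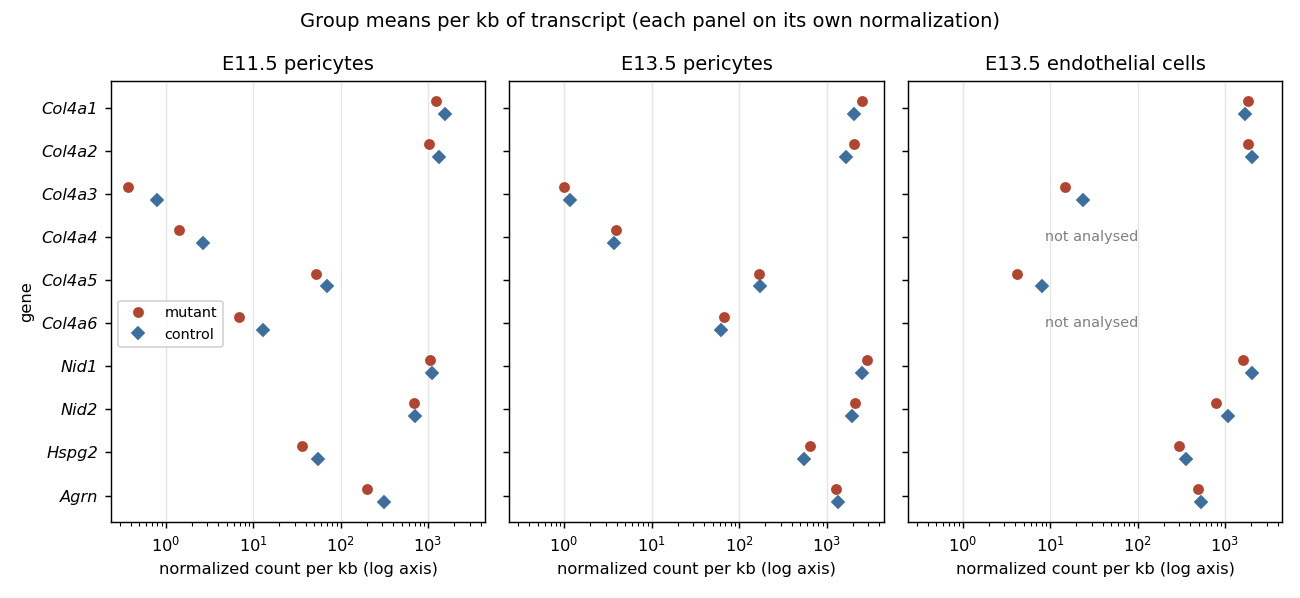
Group means of normalized counts per kb of longest coding transcript (log axis) for each gene, mutants as circles above controls as diamonds, with 1 panel per table. The panels are normalized separately. Col4a1, Col4a2, Nid1 and Nid2 lie between 698 and 2895 per kb in every group, and Col4a3 and Col4a4 lie under 4 per kb in pericytes.

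The tables were normalized separately, so stages and cell types were set beside each other through the quotient of each gene to Col4a1 within a group. Perlecan RNA made a smaller quotient to Col4a1 at E11.5 than at E13.5. The Hspg2 level per kb was 0.0297 of the Col4a1 level in mutant and 0.0356 in control pericytes at E11.5, and 0.253 in mutant and 0.266 in control pericytes at E13.5. The same quotient for Agrn was 0.163 in mutants and 0.203 in controls at E11.5, and 0.507 in mutants and 0.658 in controls at E13.5. Within the pericytes of each stage, Agrn was above Hspg2 per kb, 5.49-fold in mutants and 5.69-fold in controls at E11.5 and 2.00-fold in mutants and 2.48-fold in controls at E13.5. By rank within its own table, Hspg2 stood at the 98.8th percentile in mutant and the 98.4th in control pericytes at E13.5, against the 68.3rd in mutants and the 77.1st in controls at E11.5. Col4a6 stood at the 61.8th in mutants and the 60.4th in controls at E13.5, against the 32.7th in mutants and the 38.7th in controls at E11.5. Col4a1, Col4a2 and Nid1 were above the 98th percentile in all 6 groups. Hspg2 has the longest transcript of the 10 genes, 14187 bases, and coverage along the transcript was not analysed here. Fibroblast and meningeal markers made up 0.671% of the summed control means at E11.5 and 1.20% at E13.5. Age and the mix of sorted cells cannot be told apart here, and the part of either in these quotients was not tested.

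Endothelial cells lay between the pericyte stages in their Hspg2 quotient, at 0.164 in mutants and 0.212 in controls, and had the lowest Col4a5 quotient, at 0.00232 in mutants and 0.00480 in controls, against 0.0664 in mutant and 0.0838 in control pericytes at E13.5. Nid1 equalled 1.13 of Col4a1 in mutant and 1.24 in control pericytes at E13.5, and 0.880 in mutant and 1.18 in control endothelial cells. Without a spread between samples, none of these quotients could be tested.

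**Figure D2:**
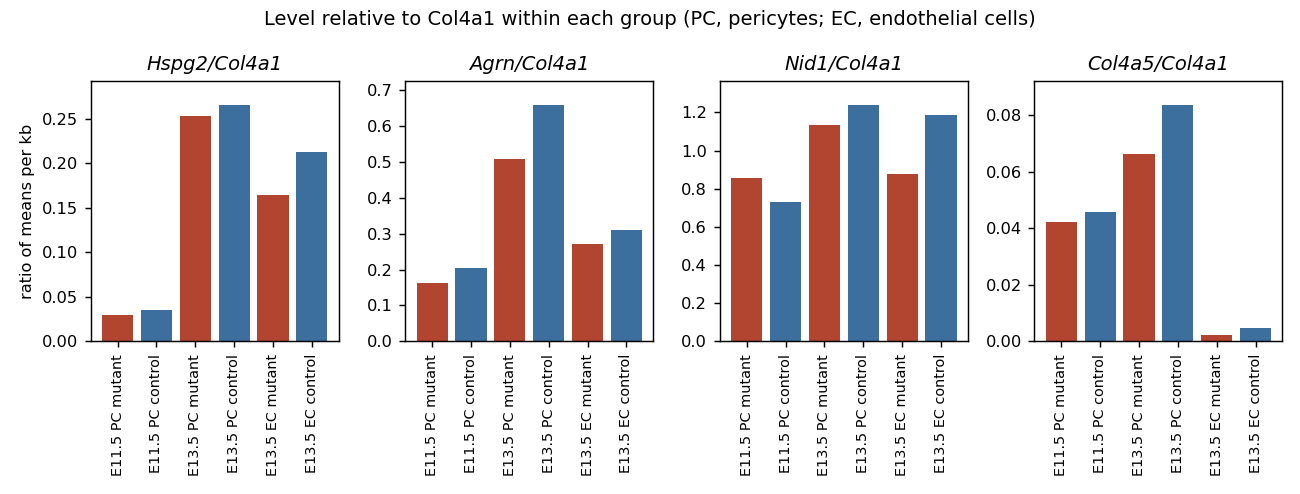
Quotient of mean levels per kb of Hspg2, Agrn, Nid1 and Col4a5 to Col4a1 in each of the 6 groups, mutants left of their controls and bars starting at 0. Hspg2 and Agrn stand low in both E11.5 groups, and Col4a5 is at 0.00232 in mutant and 0.00480 in control endothelial cells.

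In E11.5 mutant pericytes the RNAs of agrin and of the Col4a6 chain fell. Agrn averaged 1454 in mutants and 2271 in controls, a log2 ratio of -0.64 (SE 0.16, adjusted p = 0.00492, DESeq2, n = 4 each) per the authors' deposited table. Col4a6 averaged 45.9 in mutants and 85.9 in controls, a log2 ratio of -0.90 (SE 0.27, adjusted p = 0.0310) per the authors' deposited table. All 9 members with an adjusted p had a ratio below 1, with a median log2 ratio of -0.44, against -0.0044 over all genes. Of those 9 genes 2 were called lower, where 2.70% of all genes were called lower, and none was called higher, where 0.642% of all genes were; in either direction 3.35% of all genes were called. The unadjusted p was under 0.05 for 5 members, all lower, against 11.4% of all genes lower and 6.30% higher at that p. Among genes in the same decile of levels, 2.65% had a lower log2 ratio than Agrn, 4.03% a lower one than Hspg2 and 8.51% a lower one than Col4a6.

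Col4a1 and Col4a2, the main chains, did not pass at E11.5. Col4a1 averaged 8119.6 in mutants and 10202 in controls per the authors' deposited table, a log2 ratio of -0.33 with a 95% interval of -0.71 to 0.05 and an adjusted p of 0.365 (DESeq2). Col4a2 averaged 6611 in mutants and 8633 in controls, with an adjusted p of 0.274 per the authors' deposited table. The head-to-head partners had log2 ratios of -0.33 and -0.38, and their quotient per kb was 1.20 in mutants and 1.15 in controls.

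Among the restricted chains at E11.5, Col4a5 averaged 339.7 in mutants and 460.5 in controls (adjusted p = 0.121) per the authors' deposited table. Col4a4 had 14.2 in mutants and 27.0 in controls (adjusted p = 0.288), and Col4a3 3.17 in mutants and 6.91 in controls with no adjusted p, per the authors' deposited table. In controls Col4a4 stood at the 23.8th percentile of levels and Col4a3 at the 7.6th.

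The nidogen genes were not called at E11.5 either. Nid1 averaged 6388 in mutants and 6837 in controls, with a log2 ratio of -0.10 (95% interval -0.38 to 0.18) per the authors' deposited table. Nid2 had 3404 in mutants and 3490.2 in controls per the authors' deposited table, and its 95% interval of -0.67 to 0.60 was the widest among the 4 abundant genes. Perlecan RNA averaged 518 in mutants and 779.9 in controls, with a log2 ratio of -0.59 and an adjusted p of 0.156 per the authors' deposited table.

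Markers of several cell types were counted at E11.5 beside these genes, where 2.70% of all genes were called lower and 0.642% higher. Of 12 fibroblast and meningeal markers 4 were called lower and 0 higher, with a median log2 ratio of -0.78, and their summed mean was 76735 in mutants and 102587 in controls. Of 11 pericyte markers 5 were called lower, with a median of -0.64 and a sum of 11239 in mutants and 14175 in controls. Of 8 endothelial markers tested 1 was called lower, with a median of -1.03, and their sum was 649 in mutants and 1221 in controls. All 8 had a ratio below 1, and 5 were lower at an unadjusted p under 0.05. Of 10 myeloid markers 2 were called lower, with a median of -0.99. All 10 had a ratio below 1, and 9 were lower at an unadjusted p under 0.05. Of 7 smooth muscle markers 6 had a ratio above 1, with a median of 0.12, and 1 was called higher. None of the pericyte or fibroblast markers was at 0 in either group, and their part in the fall of Agrn and Col4a6 was not tested.

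Ratios also ran with transcript length at E11.5. Genes in the longest decile of transcripts, which holds Agrn, Hspg2 and all collagen IV chains given an adjusted p, had a median log2 ratio of -0.18, the shortest decile one of 0.09. With each gene set against the median of its own decile, a choice made after seeing the data, Agrn had a log2 ratio of -0.46 and an adjusted p of 0.0774, and Col4a6 one of -0.72 and 0.120. Neither was called when the spread was rescaled so that the median test statistic matched a standard normal, where adjusted p were 0.768 for Agrn and 0.995 for Col4a6.

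At E13.5 no member was called in mutant pericytes. Of 9 members with an adjusted p 7 had a ratio above 1, with a median log2 ratio of 0.11, against 0.0012 over all genes. The count of 0 called by DESeq2 stands beside 0.388% of all genes called, made up of 0.224% higher and 0.164% lower, and 4 members had an unadjusted p under 0.05, all higher in mutants, where 2.31% of all genes had such a p and were higher and 1.75% were lower. Those 4 were Col4a1, Col4a2, Nid1 and Nid2.

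Col4a1 averaged 16909 in mutant and 13574 in control pericytes at E13.5 per the authors' deposited table, a log2 ratio of 0.32 (SE 0.11, adjusted p = 0.362, DESeq2, n = 4 each). Col4a2 had 13130.5 in mutants and 10768 in controls, which gives a log2 ratio of 0.29 (SE 0.10, adjusted p = 0.389) per the authors' deposited table. Among genes in the same decile of levels, 99.4% had a lower log2 ratio than Col4a1 and 99.2% a lower one than Col4a2. Both genes lay near the upper end of the highly expressed genes without passing the threshold. The 95% intervals ran from 0.11 to 0.53 for Col4a1 and from 0.09 to 0.48 for Col4a2.

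Nid1 averaged 17634 in mutants and 15496 in controls, Nid2 10296 in mutants and 9520.35 in controls, and Hspg2 9173 in mutants and 7739.9 in controls at E13.5, per the authors' deposited table. Their log2 ratios were 0.19, 0.11 and 0.25, each with an adjusted p of 1.00 per the authors' deposited table. Agrn, called lower at E11.5, averaged 9406 in mutants and 9807 in controls, a log2 ratio of -0.06 with a 95% interval of -0.20 to 0.08 per the authors' deposited table. Col4a6 had 447 in mutants and 416 in controls, with a 95% interval of -0.10 to 0.30 per the authors' deposited table. Col4a5 had 1109 in mutants and 1124 in controls, Col4a4 39.2 in mutants and 37.8 in controls, and Col4a3 8.46 in mutants against 10.01 in controls per the authors' deposited table.

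Col4a5 and Col4a6 are X-linked, and Xist, the RNA of the inactive X chromosome, averaged 5.73 in mutant and 36145 in control pericytes at E13.5 per the authors' deposited table. Its level at E11.5 and in endothelial cells was not analysed here. The balance of the sexes was therefore not checked in those comparisons, the E11.5 call of Col4a6 included. The labels name no sex, so sex and genotype cannot be told apart for any gene in the E13.5 pericyte comparison, the X-linked pair included. Ratios did not run with transcript length in this table, with medians of -0.016 in the shortest and 0.0014 in the longest decile. Fibroblast and meningeal markers had a median log2 ratio of 0.10 and pericyte markers one of 0.07, and 0 of 12 and 2 of 11 were called. The 6 erythroid markers tested all had a ratio above 1, with a median log2 ratio of 2.13, and DESeq2 called none of them, with 3 higher at an unadjusted p under 0.05. Of 7 smooth muscle markers all had a ratio above 1, with a median of 0.38, and 1 was called higher. The part of these RNAs in the members' ratios was not tested.

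**Figure D3:**
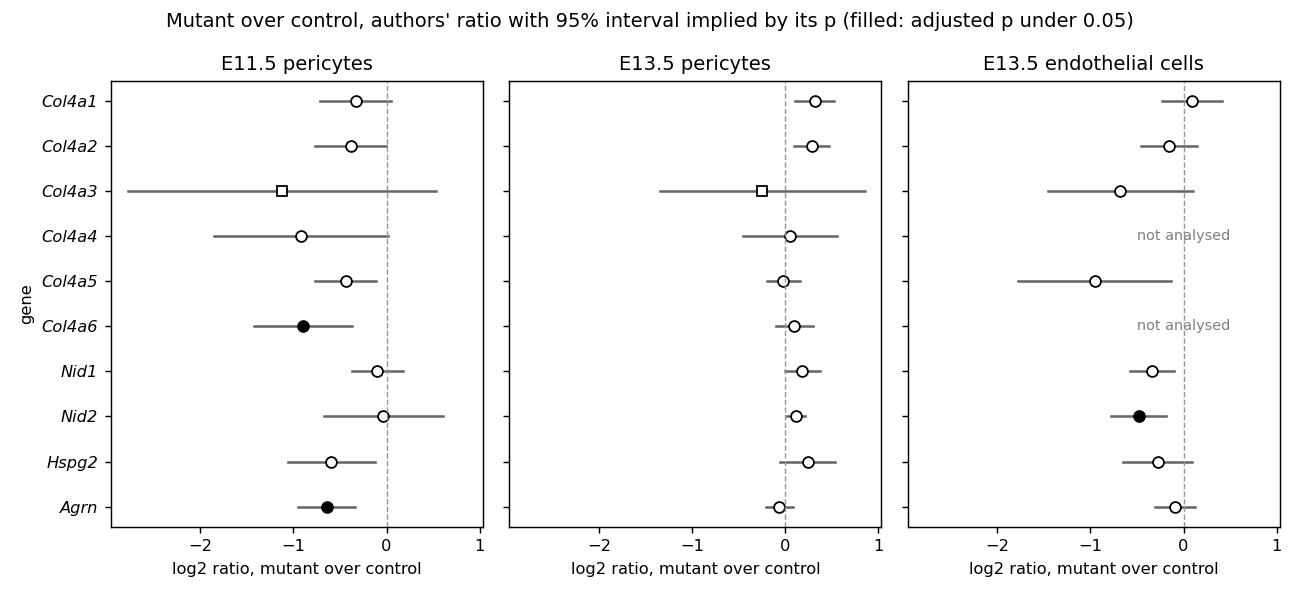
Log2 ratio of mutant over control for each gene in the 3 comparisons, with the 95% interval implied by the authors' p. Filled circles were called (Agrn and Col4a6 at E11.5, Nid2 in endothelial cells), open circles were not, and open squares (Col4a3 in pericytes) had no adjusted p.

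Ratios were higher at E13.5 than at E11.5 in every member, and Col4a6 was the member whose difference passed. The log2 ratio at E13.5 minus that at E11.5 was positive for all 10 members, with a median of 0.66, against 0.02 over all genes. For Col4a6 it was 1.00 (SE 0.29, adjusted p = 0.0450), from log2 ratios of 0.10 at E13.5 and -0.90 at E11.5. This call of 1 in 10 stands beside 1.18% of all genes, and the unadjusted p was under 0.05 for 6 of 10 members, against 12.2% of all genes. Agrn differed by 0.58 (adjusted p = 0.0580), Col4a2 by 0.67 (adjusted p = 0.0969), Hspg2 by 0.84 (adjusted p = 0.125) and Col4a1 by 0.65 (adjusted p = 0.138). The adjusted p for Col4a6 was 0.145 when ratios were centred by transcript length. These differences use the E13.5 pericyte ratios, in which sex and genotype cannot be told apart. The balance of the sexes at E11.5 was not checked.

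In E13.5 endothelial cells of the mutants the RNA of nidogen-2 fell. Nid2 averaged 3813 in mutants and 5329 in controls, a log2 ratio of -0.48 (SE 0.15, adjusted p = 0.0244, DESeq2, n = 3 mutant and 5 control) per the authors' deposited table. Nid1 had 9742 in mutants and 12290.1 in controls, a log2 ratio of -0.34 and an adjusted p of 0.0661 per the authors' deposited table. Of 8 members tested 1 was called lower, where 2.19% of all genes were, and none was called higher, where 5.11% of all genes were; in either direction the share was 7.30%. The unadjusted p was under 0.05 for 3 members, Nid2, Nid1 and Col4a5, all lower, against 8.84% of all genes lower and 11.2% higher at that p. The members' median log2 ratio was -0.31, against -0.01 over all genes.

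The main collagen IV chains did not pass in endothelial cells. Col4a1 averaged 12029.5 in mutants and 11271 in controls and Col4a2 had 11772 in mutants and 13147 in controls, with adjusted p of 0.815 and 0.619 per the authors' deposited table. Their log2 ratios were 0.09 (95% interval -0.23 to 0.42) and -0.16 (95% interval -0.46 to 0.14). The quotient of Col4a1 to Col4a2 per kb was 0.996 in mutants and 0.836 in controls.

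Perlecan RNA had endothelial means of 4237 in mutants and 5132 in controls (adjusted p = 0.438) and agrin RNA 3592 in mutants and 3823 in controls (adjusted p = 0.715) per the authors' deposited table. Col4a3 had 128 in mutants and 205 in controls (adjusted p = 0.339) per the authors' deposited table. Col4a5 had 27.6 in mutants and 53.5 in controls, a log2 ratio of -0.96 with an adjusted p of 0.161, per the authors' deposited table.

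The endothelial mutants also held far more haemoglobin RNA, and their ratios ran with transcript length. The 8 erythroid markers were all called higher and made up 7.44% of the summed means in mutants and 0.302% in controls. Of 12 endothelial markers 1 was called lower, with a median log2 ratio of -0.24, and of 11 pericyte markers none was called by DESeq2, with 2 lower at an unadjusted p under 0.05. Of 10 fibroblast and meningeal markers tested 1 was called higher. All 10 myeloid markers had a ratio above 1, with a median log2 ratio of 0.98, and 3 were called higher. The part of these RNAs in the fall of Nid2 was not tested. Genes in the shortest decile of transcripts had a median log2 ratio of 0.32, the longest decile one of -0.21, and in the decile that holds Nid1 and Nid2 97 genes were called lower and 11 higher. Centred by transcript length, Nid2 had a log2 ratio of -0.32 and an adjusted p of 0.301, and with the spread rescaled an adjusted p of 0.558. The summed means of the mutants, which include the erythroid RNA above, were 0.13 higher on the log2 scale. Scaled to those sums Nid1 was called too, with a log2 ratio of -0.46 and an adjusted p of 0.0043. Over all genes the same scaling gave 1565 called lower, in place of 397.

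**Figure D4:**
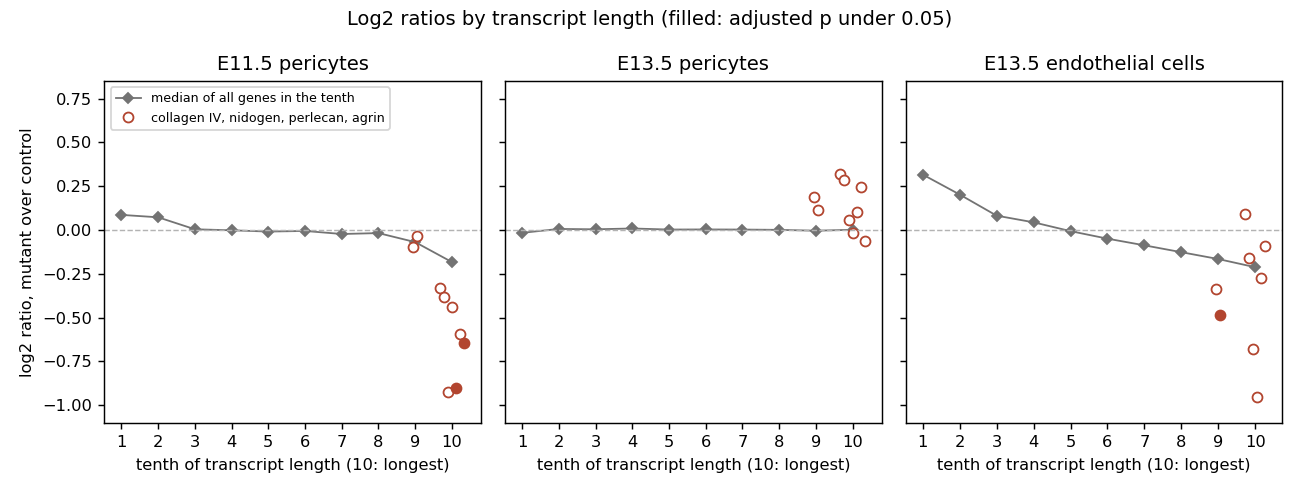
Log2 ratio of mutant over control by decile of longest transcript length, from shortest (1) to longest (10), in each comparison. Diamonds joined by a line are medians of all genes in a decile, and circles are the genes described here, filled where called; the medians run from 0.32 to -0.21 in endothelial cells and stay between -0.016 and 0.009 in E13.5 pericytes.

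The nidogens differed between the cell types at E13.5. The log2 ratio in endothelial cells minus that in pericytes was -0.60 for Nid2 (SE 0.16, adjusted p = 0.0106) and -0.52 for Nid1 (SE 0.15, adjusted p = 0.0268). It was negative for all 8 members tested, with a median of -0.48, against -0.02 over all genes, and 2 of 8 were called, against 3.37% of all genes. Col4a2 differed by -0.45 (adjusted p = 0.190), and Agrn by -0.03 with a 95% interval of -0.29 to 0.23. The differences between cell types and those between stages use the same E13.5 pericyte libraries, in which sex and genotype cannot be told apart. The test took the endothelial and pericyte ratios as independent. The labels do not say whether both cell types came from the same embryos. Centred by transcript length the adjusted p were 0.221 for Nid2 and 0.341 for Nid1, and Agrn then differed by 0.18.

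Other basement membrane genes were counted for context, and their counts are read against the shares of all genes called, 3.35% at E11.5, 0.388% in E13.5 pericytes and 7.30% in endothelial cells. Of 26 tested at E11.5 0 were called by DESeq2, in either direction, with 6 lower and 1 higher at an unadjusted p under 0.05, and 19 had a ratio below 1. Of 28 at E13.5 in pericytes 1 rose and 1 fell. Tinagl1, a tubulointerstitial nephritis antigen-like matrix protein gene, averaged 189 in mutants and 98.0 in controls, and Col15a1, a multiplexin collagen gene, 47.6 in mutants and 365 in controls, per the authors' deposited table. In endothelial cells 1 of 27 fell, again Col15a1, at 119.6 in mutants and 1196 in controls, and 22 of 27 had a ratio below 1, with a median log2 ratio of -0.30.

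Among 25 genes for maturing and exporting collagen, P4ha3, a prolyl hydroxylase subunit gene, fell at E11.5, with means of 146 in mutants and 447 in controls per the authors' deposited table. This 1 call among 25 lies near the shares of all genes at that stage, 2.70% called lower and 3.35% in either direction. In endothelial cells Mia3 and Klhl12, whose products help package procollagen into transport carriers, fell, with log2 ratios of -0.37 and -0.41 per the authors' deposited table. These 2 calls among 24 genes, both lower, stand beside 2.19% of all genes called lower there and 7.30% called in either direction. In E13.5 pericytes 0 of 25 were called by DESeq2, and 2 were higher and 2 lower at an unadjusted p under 0.05. Of the receptors, Itga1, the alpha subunit of a collagen-binding integrin, fell in endothelial cells, with means of 3191 in mutants and 4062.5 in controls per the authors' deposited table. It was the 1 call among 13, beside the same endothelial shares of all genes. In pericytes DESeq2 called 0 of 12 receptors at E11.5, with 1 lower at an unadjusted p under 0.05, and 0 of 15 at E13.5, with 2 higher.

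The list of genes for breaking down basement membrane also held the metalloproteinase inhibitor genes Timp1, Timp2, Timp3 and Timp4. Of its 15 genes tested at E11.5, Bmp1, Ctss, Mmp14 and Mmp9 fell. Their products are a procollagen-processing protease, a lysosomal protease of macrophages, a membrane-bound metalloproteinase and a gelatinase that cleaves collagen IV. Mmp9 fell also in E13.5 pericytes, with means of 679.6 in mutants and 1123 in controls per the authors' deposited table. It was the 1 call among 16, beside 0.388% of all genes called in that comparison. Ctsb, a lysosomal protease gene, rose in endothelial cells, the 1 call among 16 and near the share of all genes called, where myeloid markers had a median log2 ratio of 0.98 with 3 of 10 called higher.

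For heparan sulfate, the sugar of perlecan and agrin, Sulf2, an enzyme gene that trims its sulfates, was the 1 of 23 called at E11.5, with means of 4267 in mutants and 6045 in controls per the authors' deposited table. At that stage 2.70% of all genes were called lower and 3.35% in either direction, near the share in this list. Glce, which encodes an epimerase of the sugar chain, was the 1 of 20 called in endothelial cells, with a log2 ratio of -0.56. In those cells 2.19% of all genes were called lower and 7.30% in either direction. DESeq2 called 0 of 25 in E13.5 pericytes, with 2 higher at an unadjusted p under 0.05. Of the other proteoglycans Tgfbr3, a TGF-beta co-receptor gene, rose in E13.5 pericytes (1 of 14, beside 0.388% of all genes called). Spock2, a testican gene, fell in endothelial cells (1 of 13, beside the same endothelial shares of all genes). At E11.5 DESeq2 called 0 of 13, with 3 lower at an unadjusted p under 0.05.

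**Figure D5:**
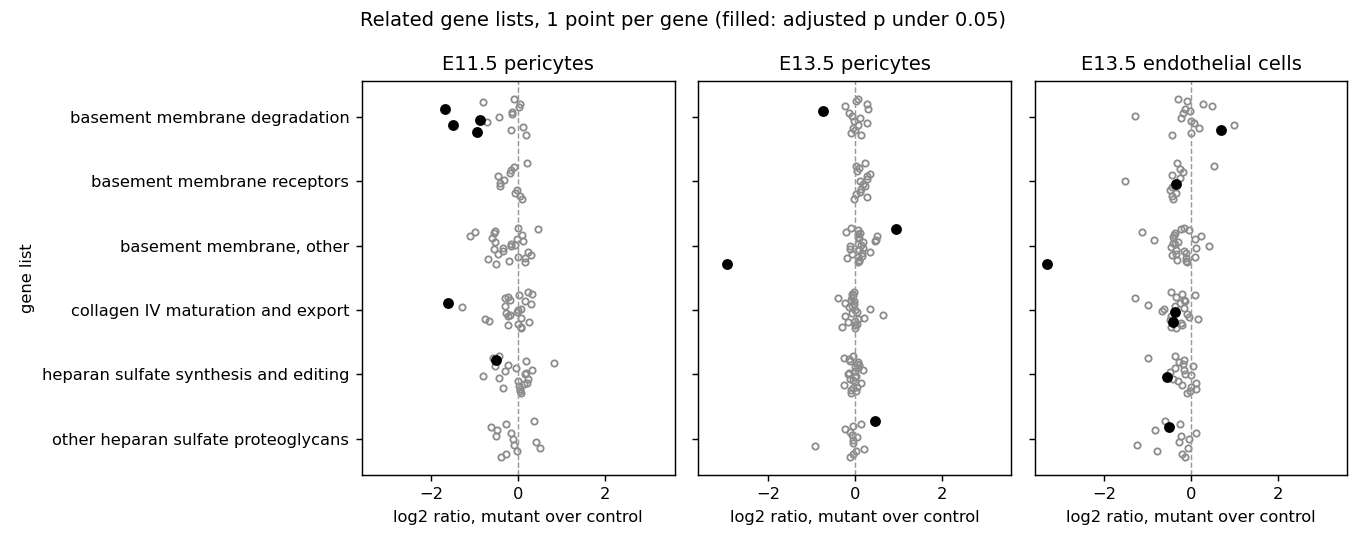
Log2 ratio of mutant over control for every tested gene of 6 related lists in the 3 comparisons, with called genes filled. At E11.5 the 4 called genes of the degradation list lie left of 0, and Col15a1 is the far left point in E13.5 pericytes and endothelial cells.

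Over the 3 comparisons the genes with log2 ratios nearest to those of Col4a1 were Dkk2, Tagln2, Prss23, Mterf4 and Pik3cd, at Euclidean distances of 0.115 to 0.175, among 8724 genes above the median level in every table. Col4a2 ranked 47th, at 0.26, and the next member was Hspg2 at rank 1454. The likeness rests on 3 ratios per gene and is a description.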

How the data were processed

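Polyadenylated RNA of the sorted cells went into KAPA mRNA HyperPrep libraries for an Illumina instrument, per the labels' protocols. Bowtie2, Partek and DESeq2 are named with mm10, without versions, per the submitters' processing notes. Not given in the sources used here are the gene models, how reads were counted and filtered, and the fitted design. Each deposited table gives the authors' p-value, step-up FDR (an adjusted p), ratio, signed fold change and group means. The group means were read as the authors' signal, a mean normalized count of unstated scale, so the depth of each library is unknown, and counting intervals could not be computed. Benjamini-Hochberg adjustment of the deposited p gave back that FDR for 19301 genes at E11.5, 20084 in pericytes at E13.5 and 18132 in endothelial cells.

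The implied SE is the log2 of the deposited ratio divided by the normal deviate that the two-sided p stands for. Differences between stages and cell types used these SE, a normal deviate and Benjamini-Hochberg adjustment over 20936 and 19336 genes. No gene was refitted, since values per library were not analysed here, and the fallback planned for that case applied. The labels do not say that samples came from separate embryos or litters, so p-values may measure technical spread only. Lengths and positions come from GENCODE M21, and a length was found for 97.5% of genes with an adjusted p in each table. Tools were scipy 1.17.1, pandas 2.3.3, numpy 2.4.6, matplotlib 3.10.9 and Python 3.11.15. Steps were tested on simulated data. The members and lists were chosen with earlier results of these data known. Named were all members, Tgfbr1, Xist, up to 3 called genes of each list by p in each comparison, Mmp9 at E11.5 beyond that rule because it was called at both stages, and the 5 genes nearest to Col4a1. Of the 8 marker lists, those of smooth muscle, neural and epithelial cells had 1, 0 and 0 called at E11.5, 1, 0 and 0 in E13.5 pericytes, and none in endothelial cells, out of 7, 8 and 6, then 7, 9 and 6, then 2, 8 and 5 tested. Erythroid markers had 0 of 3 called at E11.5, with 2 lower at an unadjusted p under 0.05, and myeloid markers 0 of 10 in E13.5 pericytes. Endothelial markers had 1 of 10 called lower in E13.5 pericytes. The alternatives were no filter on low genes, a threshold of 0.1, a log2 ratio of at least 1, a rescaled spread, 2 other scalings, centring by transcript length and merged exons as the length.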

Additional observations from a re-analysis of the deposited data

Results flagged for a closer look

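Each of 3 results differed between groups under the same contrast of mutant with control, by the test of the difference itself. Col4a6 differed between the pericyte stages by 1.00 on the log2 scale (SE 0.29, adjusted p = 0.0450), with log2 ratios of 0.10 at E13.5 and -0.90 at E11.5. Nid2 differed between the cell types at E13.5 by -0.60 (SE 0.16, adjusted p = 0.0106), with log2 ratios of -0.48 in endothelial cells and 0.11 in pericytes. Nid1 differed between the cell types by -0.52 (SE 0.15, adjusted p = 0.0268), with log2 ratios of -0.34 in endothelial cells and 0.19 in pericytes. All 3 differences use the E13.5 pericyte ratios, in which Xist averaged 5.73 in mutants and 36145 in controls, so that sex and genotype cannot be told apart there. The calls were lost when ratios were centred by transcript length and when the spread was rescaled.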

How the results depend on the processing

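With the spread rescaled to the median test statistic, the counts of called members were 0 lower at E11.5, 0 lower in endothelial cells, 0 differing between stages and 0 differing between cell types, in place of 2, 1, 1 and 2. Centring by transcript length, added after the data were seen, gave 0 for each of these 4 counts as well, and a log2 ratio of at least 1 gave 0 lower at E11.5 and 0 lower in endothelial cells. A threshold of 0.1 gave 2 lower in endothelial cells and 3 differing between stages (Col4a6, Agrn and Col4a2), scaling to the summed means gave 2 lower in endothelial cells, and centring on genes above the median level gave 3 differing between stages. Calls in E13.5 pericytes were 0 in each direction under every alternative run. The direction reversed for Col4a1 in endothelial cells scaled to the summed means (-0.031), and with centring by transcript length for Nid2 at E11.5 (0.033), Col4a2 (0.053) and Agrn (0.12) in endothelial cells and Agrn between cell types (0.18). Over all genes, 646, 78 and 1323 calls in the E11.5 pericytes, E13.5 pericytes and endothelial cells include 124, 45 and 926 higher. With the spread rescaled 2 were higher and 3 lower at E11.5, 88 higher and 54 lower in E13.5 pericytes, and 45 higher and 4 lower in endothelial cells. Scaled to the summed means, which include the erythroid RNA, 634 were higher and 1565 lower in endothelial cells. Centred by transcript length 286 were higher and 98 lower there. In E13.5 pericytes scaling to the summed means gave 60 higher and 26 lower, beside 45 and 33. A log2 ratio of at least 1 left 35 higher and 280 lower at E11.5, 12 and 5 in E13.5 pericytes, and 201 and 46 in endothelial cells, and a threshold of 0.1 gave 272 and 867, 62 and 39, and 1229 and 721. Genes differing between stages numbered 247, and 2 with the spread rescaled, 425 at a threshold of 0.1 and 388 centred on genes above the median level. Genes differing between cell types numbered 651, and 15 with the spread rescaled and 137 centred by transcript length. The cause of these changes was not tested. No paired analysis was possible because the tables hold group means only, and leaving out replicates was not run for the same reason.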
